A study of Mus musculus with 16 samples.

Results

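A group of 89 small nucleolar RNA (snoRNA) entries from the Snhg14 locus of mouse chromosome 7 was examined in small RNA libraries of plasma small extracellular vesicles (pEVs), out of 15159 ncRNAs listed. The group holds Gm24100, the 71 other entries named Gm with a number whose normalized counts had a Pearson r of at least 0.9 with Gm24100 over the 16 libraries, out of 670 Gm entries, and every entry whose name starts with Snord115 or Snord116. No entry was named Snord115, and 17 were named Snord116, all from Snord116l1 to Snord116l17. The 72 Gm entries were therefore chosen by the same values that are shown here, and Gm24100 was chosen with its difference between the genotypes known, so these values are a description and carry no test. The 17 Snord116l entries came in by name.

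The study compared heterozygous PS19 mice (PS19+/-, line PS19Vle on a mixed B6 and C3 background), which carry human MAPT, the tau gene, with the P301S mutation under the prion protein promoter (Prnp), with WT littermates. Both groups held 8 mice of about 9.6 months, males and females in equal number, with 1 library per mouse. The pEVs came from 200 µL plasma by precipitation, which does not sort vesicles by their cell of origin. Every value below is a normalized count, the read count of an entry after division by a size factor that DESeq2 gives each library, or the whole read count recovered from it.

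C/D box snoRNAs are short intronic RNAs that are released when their host transcript is spliced, bind fibrillarin and guide ribose methylation of other RNAs through a stretch next to a D box. Snhg14 is a long host transcript made from the paternal chromosome, mostly in neurons, and it carries the Snord116 and Snord115 arrays, each built of many tandem copies. Loss of the Snord116 region is linked to Prader-Willi syndrome, and the Snord115 family is known for a stretch complementary to the pre-mRNA of Htr2c, a serotonin receptor gene.

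All 89 entries matched a gene of the GENCODE M21 annotation (GRCm38) by name, and all 89 lay in introns of Snhg14, on the minus strand at chr7:59307924-59975759. The 72 Gm entries were all 79 bases long and belonged to an array of 134 genes, 130 of 79 bases and 4 of 78, 132 of them listed and called the 79-base array here, at chr7:59344073-59619095 (275 kb, median spacing 1871 bases). The 17 Snord116l entries were 94 bases long and sat in a separate array of 70 listed genes, nearly all of that length and called the 94-base array, at chr7:59673461-59904848, which is nearer to the start of Snhg14 (231 kb, median spacing 2527 bases). Of all 670 Gm entries listed, 188 (28.1%) lie inside Snhg14. Gm24100 differs from the commonest sequence of the array at 1 position, so the common position of the 72 entries is a description and not independent of the choice by correlation. In the map of reads by distance, entries of equal height stand beside each other because many copies had the same count.

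**Figure D1:**
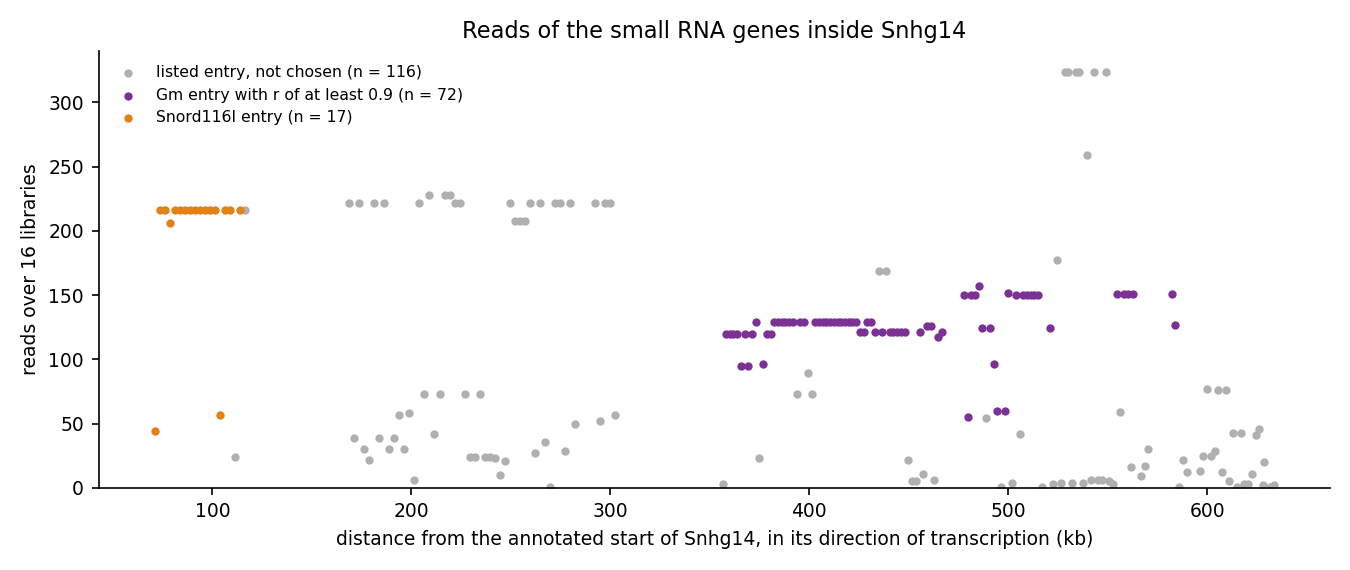
Reads over the 16 libraries (vertical axis) of the 205 listed small RNA genes inside Snhg14, by the distance of each from the annotated start of Snhg14 in kb (horizontal axis). The 17 Snord116l entries (orange) lie in the array nearer to the start, the 72 Gm entries (purple) in the farther one with 55 to 157 reads each, and grey points are the other listed entries.

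The sequences are shown because they decide which copies a short read can be told apart by. They were taken from the GENCODE M21 transcripts, run 5′ to 3′ in the sense of the RNA, and positions are counted from 1 at the 5′ end. The 72 Gm entries held 12 sequences, of which 1 was shared by 33 copies and is called the majority sequence here. In the first line capitals mark the 18 bases at positions 53 to 70 that are complementary to Htr2c, and in the lines after it capitals mark the bases that differ from the majority sequence.
Gm24866 and 32 further copies: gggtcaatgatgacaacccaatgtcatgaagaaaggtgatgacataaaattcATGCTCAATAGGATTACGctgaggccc
Gm26283, Gm23682 and 21 further copies: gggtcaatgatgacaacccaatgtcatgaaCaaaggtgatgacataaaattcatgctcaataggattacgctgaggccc
Gm24100: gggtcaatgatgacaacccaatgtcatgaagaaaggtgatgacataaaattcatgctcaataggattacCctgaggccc
Gm22391 and Gm24137: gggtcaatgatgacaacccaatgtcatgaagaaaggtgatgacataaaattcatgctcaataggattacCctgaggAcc
Gm24862, Gm23310 and Gm25461: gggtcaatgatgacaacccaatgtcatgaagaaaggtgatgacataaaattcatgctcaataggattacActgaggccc
Gm23254: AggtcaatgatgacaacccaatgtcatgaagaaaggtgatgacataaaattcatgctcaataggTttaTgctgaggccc
Gm22510, Gm26390 and Gm26336: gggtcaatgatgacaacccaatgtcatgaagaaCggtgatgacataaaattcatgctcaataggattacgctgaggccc
Gm24926 and Gm22632: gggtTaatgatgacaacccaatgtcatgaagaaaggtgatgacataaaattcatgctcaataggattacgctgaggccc
Gm26432: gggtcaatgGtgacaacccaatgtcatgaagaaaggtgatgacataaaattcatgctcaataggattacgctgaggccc

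The most frequent variant was G31C, carried alone by 23 copies. Gm24100 carried G70C, Gm22391 and Gm24137 carried G70C with C77A, 3 copies carried G70A and Gm23254 carried G1A, A65T and C69T. The copies with the fewest reads were Gm26432 with A10G (55 reads over the 16 libraries) and the pair Gm24926 and Gm22632 with C5T (60 reads), against 120 to 151 reads for the copies of the majority sequence. The last 3 sequences belonged to Gm22255 (G2T, 117 reads), Gm22834 (C78A and C79A, 152 reads) and Gm25089 (G31C and C79G, 129 reads).

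The 18-base stretch was found in 65 of the 72 Gm entries. Its complement stood in a coding exon of Htr2c at chrX:147169689-147169706 on the plus strand, in 2 of the 7 annotated Htr2c transcripts, and Htr2c was the only 1 of 55341 annotated genes whose transcripts held it. Of 1483 annotated snoRNA genes 105 held the stretch (7.08%), all 105 in the 79-base array, so the stretch marks the array and not the chosen copies, and 40 of the 60 listed entries of the array that were not chosen held it too. The 7 chosen copies without the whole stretch were the 6 with a change at position 70, Gm24100 among them, whose longest match to Htr2c was 17 bases, and Gm23254, whose longest match was 12 bases. The motif TGATGA, which contains the usual C box core, was present in all 72 Gm and all 17 Snord116l entries on the sense strand, and in 70% of the 80 annotated genes named Snord and 0% of the 40 named Snora. The majority sequence of the Gm entries held it at positions 8 and 37. In Gm26432 the change A10G removed the first of these, and only the motif at position 37 was left. The D box letters CTGA were also present in all 89, in 100% of the named Snord genes and in 52.5% of the named Snora genes. These matches describe letters only, and methylation and editing were not measured.

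The 89 entries gave 20 distinct sets of values, 16 from the 72 Gm entries and 4 from the 17 Snord116l entries, so the 89 entries were not 89 measurements. Of the 72 Gm entries, 65 shared their values in all 16 libraries with at least 1 other member, in 9 sets. The set of Gm23682 had 23 entries with 129 reads each over the 16 libraries, and it included Gm25089 although that copy differs by C79G. The 33 copies of the majority sequence fell into 4 sets, each confined to its own stretch of the array. Copies at chr7:59393561-59421265 (set of Gm24866, 5 entries) had 151 reads each, copies at chr7:59460677-59498119 (set of Gm24027, 9 entries) 150, copies at chr7:59509068-59550316 (set of Gm25523, 11 entries) 121, and copies at chr7:59595165-59617690 (set of Gm25146, 8 entries) 120. The sets of Gm24866 and Gm24027 differed by 1 read in WT replicate 6, and those of Gm25523 and Gm25146 by 1 read in PS19 replicate 4. Copies with the same sequence thus had different counts in different stretches, and the reads of such copies cannot be told apart by sequence within the annotated 79 bases. Whether 1 read was counted for several entries was not tested, and no sum over the entries is given.

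The 16 Gm sets were also close to each other. Gm24100 differed from the set of Gm22391 by 1 read in WT replicate 4 and from Gm23254 by 2 reads in 2 libraries. Over all 120 pairs of sets the summed read difference ran from 1 to 102 reads (median 36), and r between sets, which share libraries and depth, was at least 0.848 (median 0.968).

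Gm24100 (chr7:59598904-59598982) had 96 reads over the 16 libraries. The PS19 libraries 1 to 8 held 0, 2, 1, 3, 2, 3, 1 and 0 reads, 12 in all, and the WT libraries 1 to 8 held 8, 4, 16, 2, 17, 6, 25 and 6 reads, 84 in all. No PS19 library passed 3 reads, and 1 WT library, replicate 4, was below that. As normalized counts, Gm24100 was at 2.44 ± 3.77 (SD, n = 8) in PS19, with a range of 0 to 11.5 and a median of 1.40, and at 9.31 ± 7.90 (SD, n = 8) in WT, with a range of 1.65 to 25.3 and a median of 7.57. The groups overlapped, and 6 of the 8 WT libraries lay inside the PS19 range, whose upper end was PS19 replicate 4, at 11.5 from 3 reads with the lowest size factor of all, 0.261. The next PS19 library was at 2.76, and of the WT libraries replicate 2 (1.65) was below that, followed by replicates 4 (3.09), 6 (3.48), 5 (6.61), 8 (8.53) and 1 (10.1). On the log2(normalized count + 1) scale, which understates changes of rare RNAs, the difference between PS19 and WT was -1.71. Per 100000000 reads assigned to ncRNAs, which leaves out the size factor, Gm24100 was at 1.86 ± 1.37 (SD, n = 8) in PS19 (range 0 to 3.68) and 11.5 ± 7.58 (SD, n = 8) in WT (range 2.37 to 22.6), and WT replicate 4 was the only WT library inside the PS19 range. The detection limit was set at 3 reads, which corresponds to 1.17 to 11.5 normalized counts depending on the library, and all 8 PS19 libraries were at or under it. This limit accounts for counting error alone, because PCR copies of a molecule are not independent.

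**Figure D2:**
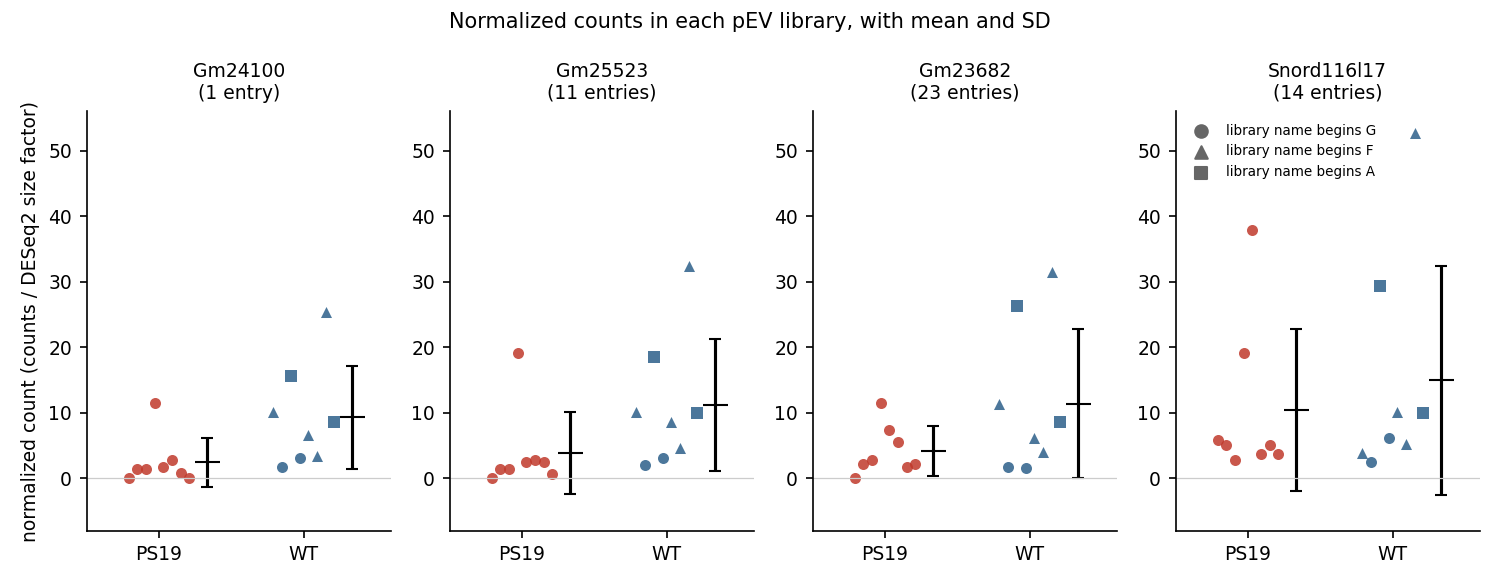
Normalized counts (vertical axis) in each of the 8 PS19 and 8 WT libraries for Gm24100, for 2 large sets of Gm entries with identical values and for the largest Snord116l set, with black bars for the mean and SD (n = 8) and the marker shape for the first letter of the library name. For Gm24100 the PS19 libraries sit between 0 and 11.5 and the WT libraries between 1.65 and 25.3, with 6 WT libraries inside the PS19 range, of which the 2 whose names begin with G are the lowest.

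The other Gm sets repeated this pattern, as the rule requires. Between 70% and 87.5% of the reads of a set came from WT libraries, with 12 to 37 reads over the 8 PS19 libraries and 40 to 124 over the 8 WT libraries. Group means ran from 2.33 to 5.12 normalized counts in PS19 and from 4.62 to 13.9 in WT, and the groups overlapped in all 16 sets. WT replicate 7 was the highest library of all in all 16 sets, with 14 to 39 reads. PS19 replicate 4 was the highest PS19 library in all 16 sets in normalized counts but held only 2 to 5 reads, and PS19 replicate 5 held the most PS19 reads in 9 of the sets.

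The largest set, that of Gm23682 (23 entries with G31C), ranged from 0 to 11.5 normalized counts in PS19 (median 2.46) and from 1.54 to 31.4 in WT (median 7.37). The set of Gm25523 (11 entries of the majority sequence) ranged from 0 to 19.2 in PS19 (median 1.95) and from 2.06 to 32.4 in WT (median 9.25). The set of Gm24027 (9 entries) ranged from 0 to 19.2 in PS19 (median 3.16) and from 2.06 to 39.5 in WT (median 11.1). In these 3 sets the upper end in PS19 lay above the WT median, and the lower end in WT lay within the PS19 range.

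Gm26283, which carried G31C like the set of Gm23682 but lay apart from it at chr7:59490561-59490639, had the most reads of all Gm members, 157, with 37 in PS19 and 120 in WT. Its PS19 values ran from 0 to 11.5 normalized counts (median 4.20) and its WT values from 1.65 to 38.5 (median 9.18). Gm22834 followed with 152 reads, 28 in PS19 and 124 in WT. It matched the set of Gm24027 in all libraries but WT replicate 3, where it had 2 more reads.

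The set of Gm22510 (3 entries with A34C, 124 reads) was the only one of the sets above 1 entry to have 3 reads in PS19 replicate 1 and none in PS19 replicate 6. Its values ran from 0 to 19.2 in PS19 (median 2.53) and from 2.88 to 33.4 in WT (median 7.90). Gm24862 with G70A had 127 reads and differed from the pair Gm23310 and Gm25461, which have the same sequence, by 1 read in PS19 replicate 5.

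**Figure D3:**
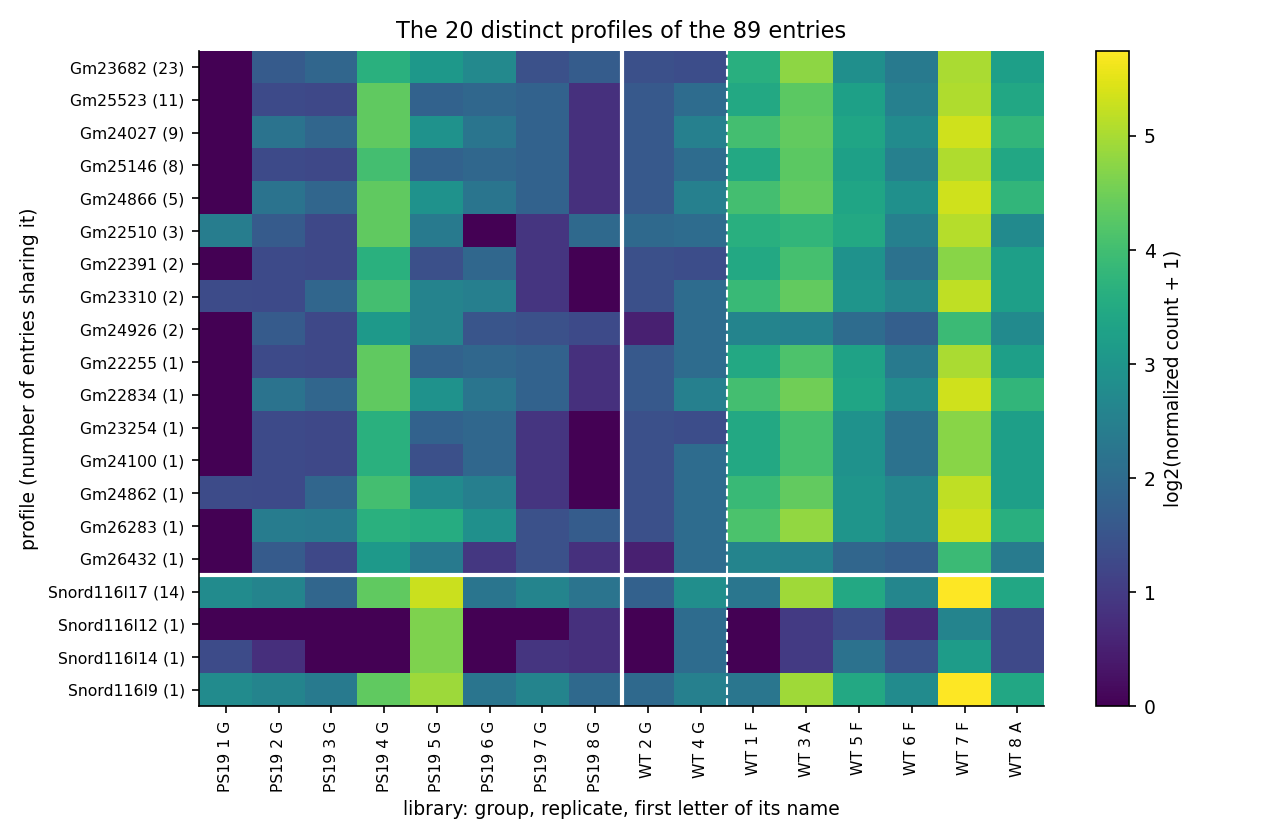
log2(normalized count + 1) of the 20 distinct sets of values (rows, with the number of entries that share each) in the 16 libraries (columns, labelled by group, replicate and first letter of the library name). The solid vertical line parts PS19 from WT, the dashed line parts the 2 WT libraries whose names begin with G from the 6 others, and the horizontal line parts the 16 Gm from the 4 Snord116l sets. WT replicate 7 is the highest column for every Gm set, and PS19 replicate 5 stands out for Snord116l12 and Snord116l14.

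The genotype difference of the Gm sets moved with the library names. All 8 PS19 names begin with G, whereas 2 WT names (replicates 2 and 4) begin with G and 6 with A or F, and the labels do not say what the letter stands for. Gm24100 had 12 reads in the 8 PS19 libraries, 6 reads in the 2 WT libraries with G and 78 reads in the 6 WT libraries with A or F. Its mean normalized count was 2.44 in PS19, 2.37 in the 2 WT libraries with G (1.65 and 3.09) and 11.6 in the 6 others (3.48 to 25.3). Over the 16 Gm sets the mean of the 2 WT libraries with G ran from 1.59 to 3.34, and that of the 6 other WT libraries from 5.57 to 17.7. The PS19 means, at 2.33 to 5.12, were above the former in all 16 sets, but they depended on PS19 replicate 4. Without that library the PS19 means were 1.15 to 4.20 and the 2 WT libraries with G had the higher mean in 12 of the 16 sets, and against the PS19 medians, at 1.40 to 4.20, they did in 13. For Gm24100 the PS19 mean without that library was 1.15, against 2.37. With the libraries whose names begin with G (8 PS19, 2 WT), the median difference of the 72 Gm entries was -0.03 on the log2 scale, against -1.44 with all 16 libraries, and that of Gm24100 was -0.42 against -1.71. With PS19 replicate 4 also left out, a choice made after seeing the data, these differences were -0.36 and -0.76. The median over all ncRNAs moved as well. It was -0.01 with all 16 libraries, 0.16 in the libraries with G and 0.18 there with PS19 replicate 4 left out. Per 100000000 reads the 2 WT libraries with G were apart, with WT replicate 2 at 11.0, above all PS19 libraries, and WT replicate 4 at 2.37, within their range. With 2 WT libraries of that letter, the genotype and whatever the letter stands for can be told apart only in part.

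Marker miRNAs of other cell types are given for the same sets of libraries, without a test. The summed normalized counts of 3 red blood cell miRNAs ran from 1937 to 44727 in PS19, were 72981 and 94695 in the 2 WT libraries with G and ran from 17232 to 56271 in the 6 others. The sum of 2 liver miRNAs ran from 8373 to 211497 in PS19, was 27218 and 259961 in the 2 WT libraries with G and ran from 26450 to 385899 in the others. The sum of 2 platelet and blood cell miRNAs ran from 23.0 to 202 in PS19, was 29.3 and 47.7 in the 2 WT libraries with G and ran from 14.2 to 117 in the others. For miR-126a-3p of endothelium the values ran from 507 to 2201 in PS19, were 1780 and 2517 in the 2 WT libraries with G and ran from 1421 to 3225 in the others. All 5 miRNAs of the list used for neurons were measured, with a sum of 982 to 10024 in PS19, 3439 and 3446 in the 2 WT libraries with G and 2208 to 10423 in the others. One of the list, miR-219a-5p, which may not be particular to neurons, was at 0 in 8 or more of the 16 libraries. The red blood cell sum of both WT libraries with G was above all other libraries, and the ranges of the other lists overlapped between the sets. In pEV samples fewer vesicles of a cell type and less RNA per vesicle cannot be told apart, and the part of these cell types in the result was not tested. Totals ran from 66767724 to 107372555 reads in PS19 and from 36220722 to 117583663 in WT, and no library pair of the 120 agreed within sampling noise.

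In the fit across all ncRNAs with limma on log2(normalized count + 1), a raw p under 0.05 was reached by 323 of 15159 ncRNAs with lower values in PS19 (2.13%) and by 412 with higher values (2.72%), 4.85% in both directions together. Of the 72 Gm entries 45 were among the former and 0 among the latter. Because the rule used these libraries, nothing is read from this count. With 1 ncRNA kept per set of identical values, 12 of the 16 Gm sets were called against 2.15% of all. No ncRNA passed 0.05 after Benjamini-Hochberg adjustment in limma, and the smallest adjusted p was 0.829. DESeq2 and edgeR on the recovered reads gave 113 and 318 ncRNAs with an adjusted p under 0.05, with 0 members among them. The count of Gm entries depended on the scaling. With library totals it stayed at 45, where 298 of 15159 ncRNAs were lower in PS19 and the median difference of the Gm entries was -1.66. With size factors from miRNAs alone it was 1, where 128 of 15159 ncRNAs were lower in PS19. There the median difference of the Gm entries was -1.10, that of Gm24100 -1.36 and that of all ncRNAs 0.18. In the libraries with G the count was 0, where 3.62% of all ncRNAs were lower in PS19. The median difference of the Gm entries was -1.44, with a range of -1.71 to -0.66, against a median of -0.01 over all ncRNAs.

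The other snoRNA kinds serve as a comparison. Of 77 C/D box entries with another Snord number, 1 was higher and 0 were lower at a raw limma p under 0.05, with a median difference of -0.13. Of 34 H/ACA box entries (Snora), which belong to the kind that guides pseudouridylation, 0 were called and the median difference was -0.09. Of 2 scaRNA entries, which guide modification of spliceosomal RNAs in Cajal bodies, 0 were called, with differences of -0.07 and 0.12. Among the other entries of the 79-base array, 1 of 60 was lower and 0 were higher, with a median of -0.27, and among the other entries of the 94-base array 0 of 53 were called, with a median of -0.30. These entries are what the rule left of each array, so their contrast with the chosen Gm entries is not independent of the rule. The 60 had a median read total of 19.5, against 129 for the chosen entries, and the log2 scale understates changes of rare RNAs.

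The Snord116l entries held 4 sequences of 94 bases, each with its own values. They are given because, among the Snord116l entries, each sequence went with its own read counts. This did not hold over the whole 94-base array. There Gm22285, with the sequence of the 14 like copies, had 222 reads against their 216, and Gm26504 with 1 change had 222 too. Capitals mark the bases that differ from the sequence of the 14 like copies.
Snord116l17 and 13 further copies: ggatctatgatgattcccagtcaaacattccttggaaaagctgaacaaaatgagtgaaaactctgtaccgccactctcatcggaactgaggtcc
Snord116l9: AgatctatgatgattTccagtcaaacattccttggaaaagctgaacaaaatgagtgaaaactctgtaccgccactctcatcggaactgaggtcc
Snord116l14: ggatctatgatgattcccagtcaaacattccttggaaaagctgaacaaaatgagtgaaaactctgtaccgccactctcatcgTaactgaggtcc
Snord116l12: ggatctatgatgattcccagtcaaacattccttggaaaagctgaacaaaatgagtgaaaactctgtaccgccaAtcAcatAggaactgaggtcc

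The 14 copies, all Snord116l entries other than l9, l12 and l14, had 216 reads each over the 16 libraries and identical values, and Gm26433, a Gm entry that did not meet the rule, had those values too. Snord116l9 (G1A and C16T) had 206 reads, Snord116l14 (G83T) 57 and Snord116l12 (C74A, T77A and C81A) 44. Their r with Gm24100 was 0.740 for the 14 copies, 0.814 for Snord116l9, 0.0634 for Snord116l14 and -0.00376 for Snord116l12, so none of them would have met the rule that chose the Gm entries.

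The set of Snord116l17 was at 10.4 ± 12.3 normalized counts (SD, n = 8) in PS19, with a range of 2.74 to 38.0 and a median of 5.01, and at 15.0 ± 17.4 (SD, n = 8) in WT, with a range of 2.47 to 52.7 and a median of 8.06. The highest libraries were PS19 replicate 5 with 46 reads and WT replicate 7 with 52, and the groups overlapped over most of their range. The difference on the log2 scale was -0.40 with an SE of 0.62, which did not pass in limma (raw p = 0.520, adjusted p = 0.871) or in a two-sided exact permutation test over the libraries (p = 0.534). It turned to 0.11 with size factors from miRNAs alone and to 0.67 in the libraries with G, so no direction is given for this set. With each library left out it ran from -0.73 without PS19 replicate 5 to -0.07 without WT replicate 7, with -0.18 without WT replicate 3. Snord116l9 gave a difference of -0.42 with an SE of 0.60 (exact permutation test, p = 0.504), which turned to 0.10 with size factors from miRNAs alone and to 0.74 in the libraries with G, so no direction is given for it either, and it ran from -0.69 without PS19 replicate 5 to -0.08 without WT replicate 7.

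Snord116l12 and Snord116l14 had many of their reads in 1 library. Of the 44 reads of Snord116l12, 29 came from PS19 replicate 5, and 6 of the 8 PS19 libraries had none. Of the 57 reads of Snord116l14, 29 came from the same library and 24 from 6 WT libraries. The differences were -0.43 with an SE of 0.62 for Snord116l12 (exact permutation test, p = 0.571) and -0.34 with an SE of 0.66 for Snord116l14 (exact permutation test, p = 0.629), and the mean normalized counts point the other way, at 3.08 in PS19 and 1.59 in WT for Snord116l12. Size and sign depended on the method, with fitted differences of -2.54 in DESeq2 and 1.02 in edgeR for Snord116l12 and of -1.84 and 0.55 for Snord116l14, and with a pseudocount of 0.1 Snord116l12 was at -1.74. Without PS19 replicate 5 the difference of Snord116l12 was -1.0004 with an SE of 0.43, and it was the only one of the 17 entries to reach a raw limma p under 0.05 when single libraries were left out (limma adjusted p = 0.807). Without WT replicate 7 it was -0.22. For Snord116l14 the difference was -0.85 without PS19 replicate 5 and -0.08 without WT replicate 7. Over the 4 distinct Snord116l sets the Benjamini-Hochberg adjusted exact p was 0.629 for each.

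The correlation with Gm24100 was compared with the sequence over the 79-base array, as a description of entries measured in the same libraries. The 72 chosen entries differed from the majority sequence at 0 to 3 positions (median 1), and 67 of them at 1 position or none. Of the 60 listed entries that were not chosen, 56 had the same length, and these differed at 1 to 10 positions (median 2). None of them had the majority sequence. Their r with Gm24100 ran from -0.162 to 0.8996 over the 60 (median 0.558), and their median read total was 19.5, against 129 for the chosen ones. A single change did not go with 1 outcome, since entries with 1 change stood on both sides of the threshold.

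**Figure D4:**
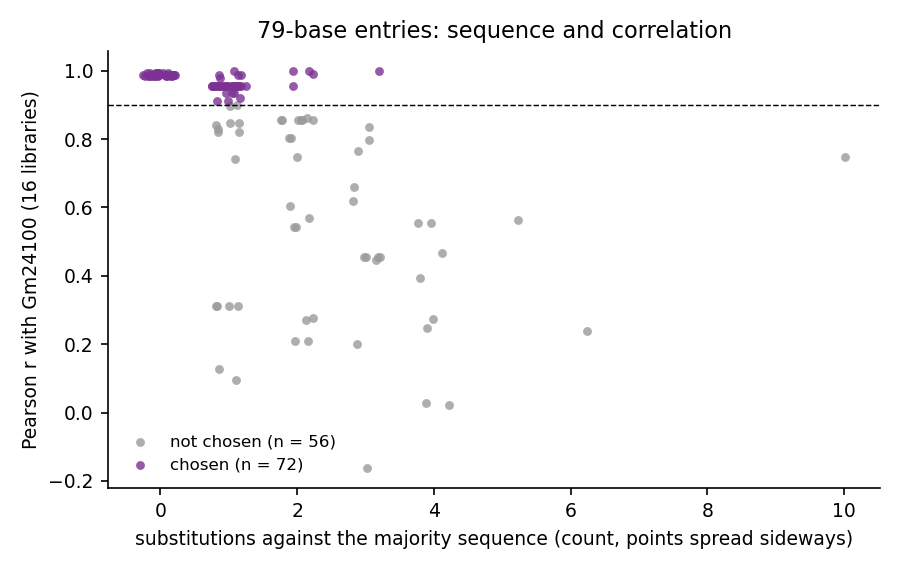
Pearson r with Gm24100 over the 16 libraries (vertical axis) against the number of bases that differ from the majority sequence (horizontal axis, points spread sideways) for the 128 listed entries of the 79-base array with the length of the majority sequence. The 33 entries with no change all lie above the dashed line at 0.9, which was the rule, and entries with 1 change lie on both sides of it.

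The members just inside the threshold were Gm24926 and Gm22632 (r = 0.910, 60 reads) and Gm26432 (r = 0.921, 55 reads). Just outside were Gm26366 with G12A (r = 0.8996, 54 reads), Gm25449 with A16T (r = 0.897, 59 reads) and Gm26202 (r = 0.875, 5379 reads), which lies on another chromosome. Gm26366 and Gm25449 belong to the 79-base array, and their counts in the PS19 libraries, 15 and 16 in all, were like those of Gm26432, 15 in all. A set of 6 entries of the array, that of Gm22130 with C14A and G35A, had more reads than any member, 324, with 93 in PS19 and 231 in WT, and an r of 0.854. It held 49 of its PS19 reads in PS19 replicate 5.

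Outside the rule, 9 of the 15070 other ncRNAs had an r of at least 0.9 with Gm24100, 4 of 12658 circRNAs, 2 of 1247 miRNAs and 3 of 821 snoRNA and snRNA genes, the members included in the last number. The 5 with the highest r were mmu_circ_0001574 (r = 0.990, 3506 reads), mmu_circ_0014293 (r = 0.968, 177 reads), mmu_circ_0014294 (r = 0.955, 5372 reads), DQ267102 (r = 0.938, 271 reads) and miR-434-3p (r = 0.916, 760 reads). The first of these had far more reads than Gm24100, 673 in PS19 and 2833 in WT, and was high in the same libraries, with 869 normalized counts in WT replicate 7, 584 in WT replicate 3 and 453 in PS19 replicate 4. In the 2 WT libraries with G it was at 54.7 and 74.1. DQ267102, annotated at chr12:109656345-109656416, had 63 reads in PS19 and 208 in WT, and miR-434-3p had 198 and 562. A further circRNA entry, mmu_circ_0001573, with 61 reads differed from Gm24926 in 1 library by 1 read.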

How the data were processed

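Each library held the small RNA of pEVs from 1 mouse. The authors aligned the reads with STAR 2.5.3a to mm10, assigned them to ncRNAs with COMPSRA and deposited, for each ncRNA and library, a signal that is the read count divided by the library's DESeq2 1.42.1 size factor. Columns with the authors' own comparison (mean, log2 fold change, its standard error, Wald statistic, p and adjusted p) were not used. Whole reads were recovered by dividing by the smallest positive value of a library, and 100% of the values came out whole within 1e-06 of a read. Reads that match several copies could be counted for each copy, and the counting of such reads is not given in the sources used here.

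The members and lists were chosen with earlier results of these data known. Named entries are Gm24100, the Snord116 rows, 1 entry for each of the 6 sets of identical values with the most members and the 6 with the most reads, the 3 entries on each side of the threshold and the 5 ncRNAs outside the rule with the highest r. The other sequence variants, Gm26433, Gm22285, Gm26504, Gm22130 and mmu_circ_0001573 were named after their values were seen. limma 3.58.1 (lmFit, and eBayes with a trend) in R 4.3.3 was run on log2(normalized count + 1) over all 15159 ncRNAs with genotype as the only term, two-sided, at a raw p of 0.05 and with Benjamini-Hochberg adjustment, after a test on simulated data. All 89 members entered, with no filter on low values. DESeq2 1.42.0 and edgeR 4.0.16 on the recovered reads were alternatives, with other scalings, filters and libraries. Exact permutation tests used scipy 1.17.1 in Python 3.11.15. The replicate numbers belong to different mice. Positions and sequences are from GENCODE M21 on GRCm38, the assembly of mm10.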

Additional observations from a re-analysis of the deposited data

Results flagged for a closer look

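Among the 4 Snord116l sets, 2 of 8 groups had 1 library far from the other 7 on the log2 scale by Dixon's test for 8 samples, which flags about 1 in 20 groups by chance. That rate cannot be applied here, since both flagged groups had the same count in the same library and most of the other values were 0 or 1 read. PS19 replicate 5 was the highest PS19 library for Snord116l12 and Snord116l14, with 23.9 normalized counts from 29 reads in each, where the next PS19 libraries had 0.727 and 1.47. The same test picked 3 of 32 groups of the Gm sets, which are given as a description only and with no chance rate. The rule chose entries that follow Gm24100, whose own highest PS19 library is replicate 4. That library was the highest PS19 library for the sets of Gm25523 and Gm22255, with 19.2 normalized counts from 5 reads in each, where the next PS19 library had 2.76, and for the set of Gm25146, with 15.3 from 4 reads against 2.76. These 3 sets had the same counts in most libraries. The cause was not tested.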

How the results depend on the processing

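The fitted log2 difference of Gm24100 was below 0 under each alternative run, which is no support since the entry was chosen for it, and in the libraries with G its mean normalized count was 2.44 in PS19 and 2.37 in WT. The balance of higher and lower calls over all ncRNAs and the sign of the Snord116l median, -0.40 with limma, did turn. The count of all ncRNAs at a raw p under 0.05, 735 with limma, was 2295 with edgeR and 444 with scaling by library totals, and 567 to 846 with each library left out. DESeq2 gave 581 higher and 241 lower in PS19 against 412 and 323, edgeR 1195 and 1100, miRNA size factors 766 and 128 and library totals 146 and 298, each of 15159 ncRNAs. The libraries with G gave 139 and 505 of 13933, and 162 and 411 of 13833 with PS19 replicate 4 also left out. The called Gm entries below were all lower in PS19, so the second number of each pair is their background. The Snord116l median was 0.11 with miRNA size factors and 0.67 in the libraries with G. miRNA size factors moved the median of all ncRNAs from -0.01 to 0.18 and edgeR moved it to -0.15. Called Gm entries, 45 with limma, were 69 with DESeq2 and with edgeR, 45 with library totals and 1 with miRNA size factors. The count was 0 in the libraries with G, also with PS19 replicate 4 left out there, and 12 of 16 with 1 ncRNA per identical set. With each library left out it was 23 (without WT replicate 7) to 69. It was 24 without PS19 replicate 8, 29 without PS19 replicate 1 or WT replicate 3, 68 without WT replicate 4 and 69 without PS19 replicate 4 or WT replicate 2. Called Snord116l entries, 0 with limma, were 0 to 1 with each library left out, the 1 without PS19 replicate 5. Gm24100, at -1.71, was at -0.42 in the libraries with G, at -2.36 with DESeq2, -2.62 with edgeR, -2.73 with a pseudocount of 0.1, -1.98 with library totals, -1.36 with miRNA size factors and at -2.04 to -1.46 with each library left out. The 72 entries by the rule were 42 on the log2 scale, 42 by Spearman's rho, 121 in WT alone and 65 (without WT replicate 7) to 107 (without PS19 replicate 5) with each library left out. In the libraries with G the rule gave 89 entries, of which 42 were among the 72. With 1 ncRNA per identical set, Gm26433 stood for the Snord116l17 set. The causes of these shifts were not tested. Low counts limit all of this, since Gm24100 rests on 96 reads.

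With a replicate block, 685 ncRNAs, 41 Gm entries and 0 Snord116l entries were called, and Gm24100 stayed at -1.71. The numbers do not pair the mice, with correlations of same-numbered libraries from -0.114 to 0.194, 1 of 8 pairs over 0.1 and 3 of 16 libraries closest to their own number.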
